A study of Homo sapiens with 10 samples.

Results

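Replication-dependent histone genes were taken as every row of the deposited gene table whose name begins with HIST1 to HIST4 followed by a histone class (H1, H2A, H2B, H3 or H4), leaving out names that end in P or PS and a number, as many histone pseudogenes do. This gave 75 genes of 50868 in the table: 6 of H1, 17 of H2A, 23 of H2B, 14 of H3 and 15 of H4. Of the 69 that matched a current symbol, RefSeq lists 3, HIST2H2BA, HIST2H2BD and HIST3H2BA, as pseudogenes. Members without a match, HIST2H2BC among them, could not be checked. RNA-seq was made from Kasumi-1, a human myeloid leukemia cell line with a translocation between chromosomes 8 and 21, transduced with HA-tagged E2-2, with HA-tagged E2A, with HA-tagged HEB or with the MIGR1 vector. The 3 factors are E proteins, basic helix-loop-helix transcription factors encoded by TCF4, TCF3 and TCF12. GFP-positive cells were sorted 4 days after infection, and each group is 1 library of the same cell line, so no spread between cultures could be measured. The series title concerns differing roles of the E proteins in leukemia with this translocation. Each E protein group overexpresses 1 factor from the retrovirus, in a single cell line.

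Replication-dependent histones package newly made DNA, and their genes are transcribed in S phase. H2A, H2B, H3 and H4 form the core of the nucleosome, and H1 binds the linker DNA between nucleosomes. Their mRNAs are the only known animal mRNAs that normally end in a stem-loop and carry no poly(A) tail. The stem-loop is bound by SLBP, which acts in processing, export, translation and decay of these mRNAs. Some of the genes also make polyadenylated transcripts, often extended past the stem-loop. The TruSeq RNA kit named in the labels is known to select polyadenylated RNA, a step that recovers such mRNAs poorly. The part of this selection in the low counts was not tested.

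The 3 members with at least 100 reads over the 4 libraries were HIST1H2AC, HIST1H2BK and HIST2H2AC. Their promoters are shown with that of SLBP, because these members had the most reads and SLBP had the largest called fold against vector among genes that act on histone RNA. Each is the 250 bases before the annotated start, from RefSeq on GRCh38.p14, 5′ to 3′ on the strand of the gene. Capitals mark CCAAT, the octamer ATTTGCAT, TATAAA and any E-box (CANNTG), each searched on both strands. Capital runs can overlap, as where an octamer and an E-box share bases.
The window of HIST1H2AC is chr6:26123922-26124171 (+), of HIST1H2BK chr6:27146859-27147108 (-), of HIST2H2AC chr1:149886668-149886917 (+) and of SLBP chr4:1712320-1712569 (-).
HIST1H2AC: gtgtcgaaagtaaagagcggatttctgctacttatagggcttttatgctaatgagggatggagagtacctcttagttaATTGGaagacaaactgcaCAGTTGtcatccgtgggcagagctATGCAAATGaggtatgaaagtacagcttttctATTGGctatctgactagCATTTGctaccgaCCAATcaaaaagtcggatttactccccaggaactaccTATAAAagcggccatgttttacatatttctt
HIST1H2BK: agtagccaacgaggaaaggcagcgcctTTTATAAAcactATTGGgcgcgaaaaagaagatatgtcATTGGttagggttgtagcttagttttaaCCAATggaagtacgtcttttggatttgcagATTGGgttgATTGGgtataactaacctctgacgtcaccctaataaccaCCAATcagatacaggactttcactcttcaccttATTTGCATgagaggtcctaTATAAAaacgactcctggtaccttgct
HIST2H2AC: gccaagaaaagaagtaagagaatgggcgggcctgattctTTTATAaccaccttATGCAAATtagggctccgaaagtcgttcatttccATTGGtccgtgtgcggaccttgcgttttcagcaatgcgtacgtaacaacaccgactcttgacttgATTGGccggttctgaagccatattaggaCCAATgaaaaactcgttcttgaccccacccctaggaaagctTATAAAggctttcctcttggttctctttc
SLBP: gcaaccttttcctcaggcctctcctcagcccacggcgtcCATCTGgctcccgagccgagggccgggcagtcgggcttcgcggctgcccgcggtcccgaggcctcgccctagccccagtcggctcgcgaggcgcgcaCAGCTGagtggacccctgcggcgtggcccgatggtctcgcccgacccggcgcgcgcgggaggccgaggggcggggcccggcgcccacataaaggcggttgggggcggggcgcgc

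The 3 histone promoters each hold CCAAT boxes, an octamer and a TATAAA close to the start, and the SLBP promoter holds none of these. The octamer is the known site of POU2F1 (OCT1), which drives H2B transcription in S phase. Of 75 members, 61 matched a promoter in the RefSeq table, and 51 of these, 83.6%, hold CCAAT, against 33.0% of all 27305 promoters of the same length. The octamer is in 42.6% of member promoters and in 1.66% of all promoters. By class it is in 11 of 14 H2A promoters and 14 of 18 H2B promoters, against 1 of 10 for H3, 0 of 13 for H4 and 0 of 6 for H1. The core promoter match TATAAA is in 65.6% of member promoters and in 11.1% of all promoters.

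E proteins bind E-boxes, with CAGGTG and CAGCTG as favoured forms. Any CANNTG is in 65.6% of member promoters and in 62.2% of all promoters. CAGGTG is in 2 of 61 member promoters, 3.28%, and in 17.5% of all promoters, and CAGCTG is in 16.4% and 13.8%. The HIST1H2AC promoter holds 3 E-boxes, all of other forms, ending 148, 121 and 75 bases before the start. Those of HIST1H2BK and HIST2H2AC hold no E-box, and the SLBP promoter holds CATCTG and CAGCTG, ending 205 and 108 bases before the start. These matches are letters in a window and do not show binding. Many windows are shared, because H2A and H2B genes lie head to head. In 11 such pairs the starts are 194 to 248 bases apart, so the windows of both genes hold largely the same DNA on opposite strands.

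Few histone reads were counted. Of 75 members, 10 had no read in any library, 40 had 1 to 29 reads over the 4 libraries, 22 had 30 to 99 and 3 had at least 100. A count of 0 allows up to 3 reads in a library, or 0.170 to 0.198 CPM, where CPM is the scaled count of a library whose scaled total is set to 1000000. Members without a read were HIST1H2AD, HIST1H2AK, HIST1H2AM and HIST3H2A among H2A genes and HIST1H2BA, HIST1H2BB and HIST3H2BA among H2B genes. The others without a read were HIST1H3D, HIST1H4A and HIST1H4L. Together the 75 members had 2406 reads, of which H2B genes took 37.4%, H2A genes 31.0%, H4 genes 18.1%, H3 genes 9.02% and H1 genes 4.45%.

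Summed over all members, the E2-2 library had 556 reads, the E2A library 593, the HEB library 606 and the vector library 651. Scaled, these were 36.7 CPM in E2-2 (33.7 to 39.8), 33.6 in E2A (30.9 to 36.4), 36.6 in HEB (33.8 to 39.7) and 41.7 in vector (38.6 to 45.1). Values in parentheses are 95% exact intervals, which cover counting error only, because each group is 1 library. Reads without molecular identifiers are not independent molecules, so the intervals may be too narrow even for counting error. The vector library was highest. Fewer cells in S phase and less histone RNA per cell cannot be told apart in such bulk RNA. The ratio to vector was 0.878 (0.783 to 0.985) for E2-2, 0.804 (0.718 to 0.90) for E2A and 0.877 (0.784 to 0.982) for HEB, and these ratios share the vector library. Without HIST1H2AC, HIST2H2AA3 and HIST2H2AA4 the ratios were 0.898 (0.791 to 1.02), 0.858 (0.758 to 0.970) and 0.841 (0.741 to 0.954), so that the E2-2 interval then held 1.

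**Figure D1:**
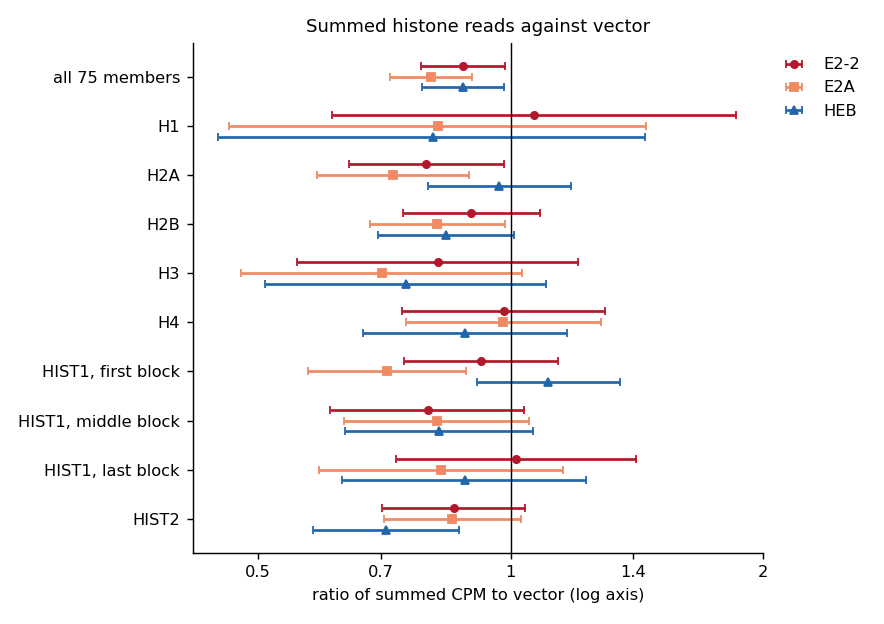
Ratio of summed histone CPM in E2-2, E2A and HEB to that in vector (log axis), for all 75 members, for each class and for the larger genomic groups. Points are ratios and lines are 95% exact counting intervals; the sum over all members lies at 0.878, 0.804 and 0.877, the HIST1 first block lies at 0.713 for E2A and 1.11 for HEB, and HIST2 at 0.852 and 0.711.

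By class, intervals below 1 against vector were seen for H2A in E2-2 and E2A and for H2B in E2A. Linker H1 genes gave 29 reads in E2-2, 26 in E2A, 24 in HEB and 28 in vector, and their intervals against vector all held 1. H2A genes gave 159 reads in E2-2, 169 in E2A, 212 in HEB and 206 in vector. Their ratio to vector was 0.794 (0.641 to 0.981) for E2-2, 0.724 (0.587 to 0.892) for E2A and 0.970 (0.797 to 1.18) for HEB. The E2A and HEB values turned on HIST1H2AC, which is described further on, while the E2-2 interval lay below 1 with and without it. The other 16 H2A genes stood at 0.757 (0.581 to 0.983) of vector in E2-2 and 0.864 (0.678 to 1.10) in E2A. In HEB these 16 stood at 0.646 (0.493 to 0.844) of vector. The pair HIST2H2AA3 and HIST2H2AA4 gave 19 of their 96 HEB reads and 57 of their 140 vector reads. H2B genes gave 213, 226, 217 and 244 reads in E2-2, E2A, HEB and vector, with a ratio of 0.818 (0.679 to 0.984) for E2A and intervals that held 1 for E2-2 and HEB. H3 genes gave 51 reads in each E protein library and 64 in vector. H4 genes gave 104, 121, 102 and 109 reads in the same order, and the intervals of H3 and H4 against vector all held 1.

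By position, 55 members lie in the HIST1 cluster on chromosome 6, in 3 blocks of 34, 5 and 16 genes. The first block, 25726132 to 26285638 in the coordinates of the table, gave 172 reads in E2-2, 155 in E2A, 226 in HEB and 192 in vector. E2A stood at 0.713 (0.573 to 0.885) of vector there and at 0.642 (0.520 to 0.791) of HEB. HIST1H2AC, described next, lies in this block and gave 32 of the 155 E2A reads and 116 of the 226 HEB reads. Without it E2A stood at 0.862 (0.667 to 1.11) of vector and at 1.05 (0.803 to 1.37) of HEB, so both intervals held 1 and the order of E2A and HEB turned. The 15 HIST2 genes on chromosome 1 were grouped by name, and HIST2H2BA, at 121108210 to 121117257, lies far from most of them. Together the 15 HIST2 genes gave 193 reads in E2-2, 224 in E2A, 175 in HEB and 232 in vector. HEB stood at 0.711 (0.581 to 0.869) of vector there, and at 0.840 (0.673 to 1.05) without HIST2H2AA3 and HIST2H2AA4, which gave 19 of the HEB reads and 57 of the vector reads. HIST3 and HIST4 held 38 and 27 reads over the 4 libraries.

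Calls on single genes needed 3 things: 30 or more reads over both libraries compared, a ratio of 2 or more in either direction, and an interval without 1. Each comparison had 12 to 15 members with enough reads. Of 16 members with enough reads in any comparison, 4 were called in at least 1, among them both HIST2H2AA3 and HIST2H2AA4. The pooled share over all genes was not counted, and shares per comparison are given further on. Calls describe single libraries, not conditions.

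HIST1H2AC, which encodes a replication-dependent H2A, was called in 3 of the 6 comparisons (ENSG00000180573, chromosome 6, 26124145 to 26139116). It had 56 reads in E2-2, 32 in E2A, 116 in HEB and 66 in vector, which is 3.69, 1.81, 7.01 and 4.23 CPM. E2A was lowest and HEB highest, with E2-2 between E2A and vector. E2A was 2.34-fold (1.51 to 3.68) lower than vector, a call. HEB was 1.66-fold (1.21 to 2.28) higher than vector, under the 2-fold rule, and E2-2 was 1.15-fold (0.790 to 1.67) lower. Compared directly, E2A was 3.87-fold (2.60 to 5.92) lower than HEB and E2-2 was 2.04-fold (1.30 to 3.25) higher than E2A, both called. E2-2 was 1.90-fold (1.37 to 2.66) lower than HEB, which was not called.

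The span of HIST1H2AC in the table, 14972 nucleotides, is far longer than the 519 that RefSeq gives the gene. The length that the authors' FPKM used for it was 4179 nucleotides, as recovered by dividing the count by the FPKM and the library total. The counted model is thus longer than the RefSeq gene, and the table does not say where along it the reads fell. No other gene of the table overlaps that span. Its head-to-head neighbour HIST1H2BC, whose start is 246 bases away, had 1 read in E2-2, 6 in E2A, 0 in HEB and 4 in vector. The library highest for HIST1H2AC thus held no HIST1H2BC read. The span of HIST1H2BC overlaps that of HIST1H2BB, so the HIST1H2BC counts are uncertain.

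HIST2H2AA3 and HIST2H2AA4 are a duplicated pair of H2A genes whose near-identical copies can share or lose reads, so their sum is more certain than either value. The sum was 39 reads in E2-2, 48 in E2A, 19 in HEB and 57 in vector, or 2.57, 2.72, 1.15 and 3.65 CPM. HEB stood below the other 3 libraries. HEB was 3.18-fold (1.87 to 5.67) lower than vector, while E2-2 was 1.42-fold (0.929 to 2.19) and E2A 1.35-fold (0.90 to 2.02) lower. In direct comparison E2-2 was 2.24-fold (1.26 to 4.10) and E2A 2.37-fold (1.37 to 4.26) higher than HEB.

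Taken singly, HIST2H2AA3 (chromosome 1, 149842188 to 149842736) had 12 reads in E2-2, 25 in E2A, 7 in HEB and 28 in vector. Against vector its level was 2.27-fold (1.12 to 4.90) lower in E2-2. In HEB it was 4.24-fold (1.81 to 11.5) lower, the largest called fold among members. It was 3.34-fold (1.41 to 9.16) higher in E2A than in HEB. HIST2H2AA4 (chromosome 1, 149851061 to 149851624) had 27 reads in E2-2, 23 in E2A, 12 in HEB and 29 in vector. HEB was 2.56-fold (1.27 to 5.52) lower than vector for this copy. E2-2 was 2.46-fold (1.20 to 5.32) higher than HEB. The E2-2 call against vector rests on HIST2H2AA3 alone and was lost when the copies were counted as 1 gene. Both copies lie inside the long span that the table gives to HIST2H2BE.

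HIST1H2BN, an H2B gene (chromosome 6, 27837760 to 27865798), had 23 reads in E2-2, 12 in E2A, 21 in HEB and 16 in vector. It was 2.23-fold (1.07 to 4.92) higher in E2-2 than in E2A, and no other comparison called it. Its span overlaps HIST1H2AK, HIST1H2AL and a pseudogene, so its reads are uncertain.

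**Figure D2:**
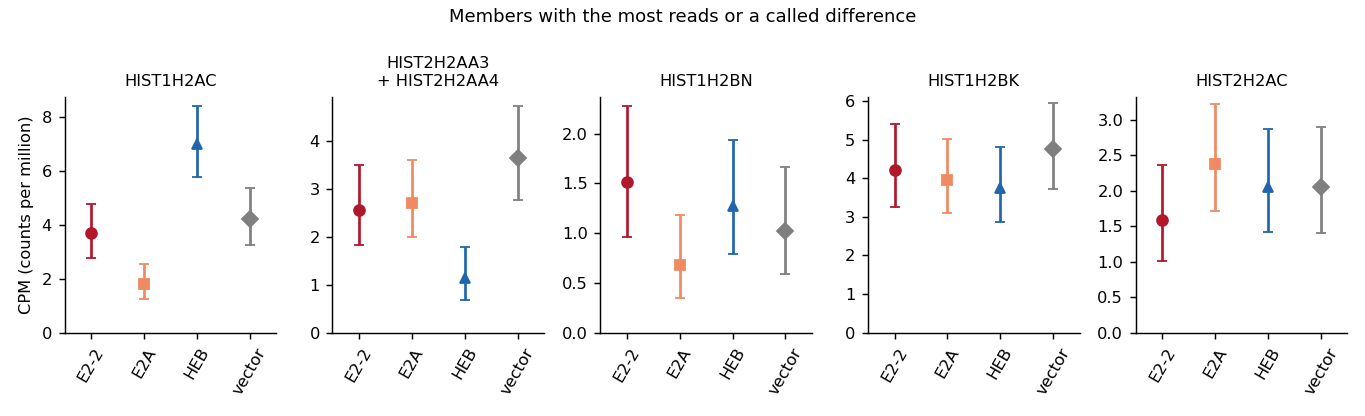
CPM in each library for the called members and the other members with at least 100 reads, with the HIST2H2AA3 and HIST2H2AA4 copies summed; 1 point per library, bars for 95% exact Poisson intervals. HIST1H2AC is lowest in E2A at 1.81 CPM and highest in HEB at 7.01, the HIST2H2AA sum is lowest in HEB at 1.15, and the HIST1H2BK and HIST2H2AC bars overlap.

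Against vector, E2-2 gave 1 lower and 0 higher of 15 measured members, beside 3.55% lower, 8.45% higher and 12.0% in either direction over all genes tested. E2A gave 1 lower and 0 higher of 12, beside 1.58%, 4.89% and 6.47%. HEB gave 2 lower and 0 higher of 14, beside 1.23%, 2.55% and 3.78%, and both HEB calls are copies of the HIST2H2AA pair. The median log2 fold of the measured members was -0.02 for E2-2, -0.25 for E2A and -0.22 for HEB, beside -0.03, -0.01 and 0.01 over all genes tested. The members' log2 folds ran from -1.18 to 0.85 for E2-2, from -1.22 to 0.21 for E2A and from -2.08 to 0.73 for HEB.

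Between the E proteins, E2-2 against E2A gave 2 higher and 0 lower of 15 measured members, beside 3.63% higher, 1.61% lower and 5.25% in either direction over all genes. E2-2 against HEB gave 1 higher and 0 lower of 13, beside 6.09%, 1.57% and 7.66%. E2A against HEB gave 1 higher and 1 lower of 13, beside 2.38%, 0.696% and 3.08%. The members' median log2 fold was 0.39, 0.26 and 0.21 in these comparisons, beside -0.01, -0.03 and -0.01 over all genes.

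The other members with at least 100 reads were not called in any comparison. HIST1H2BK, an H2B gene known for polyadenylated transcripts (chromosome 6, 27146418 to 27146798), had 64 reads in E2-2, 70 in E2A, 62 in HEB and 74 in vector. Its ratio to vector was 0.890 (0.626 to 1.26) for E2-2, 0.835 (0.594 to 1.17) for E2A and 0.790 (0.554 to 1.12) for HEB, so no difference was detectable at this depth. HIST2H2AC, an H2A gene (chromosome 1, 149886975 to 149887364), had 24 reads in E2-2, 42 in E2A, 34 in HEB and 32 in vector, and its intervals against vector also held 1.

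Leading members of the other classes, picked after their values were seen, likewise did not pass the rule. The linker gene HIST1H1C had 23 reads in E2-2, 23 in E2A, 14 in HEB and 24 in vector. The duplicated H4 genes HIST2H4A and HIST2H4B summed to 53 reads in E2-2, 52 in E2A, 41 in HEB and 45 in vector. The H3 gene HIST1H3H had 21 reads in E2-2, 13 in E2A, 16 in HEB and 12 in vector, and was 1.80-fold (0.846 to 4.01) higher in E2-2 than in vector. Another H3 gene, HIST1H3E, had 15 reads in E2-2, 6 in E2A, 11 in HEB and 4 in vector. Its ratio of E2-2 to vector, 3.86 (1.23 to 16.0), rests on 19 reads and is under the read minimum.

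**Figure D3:**
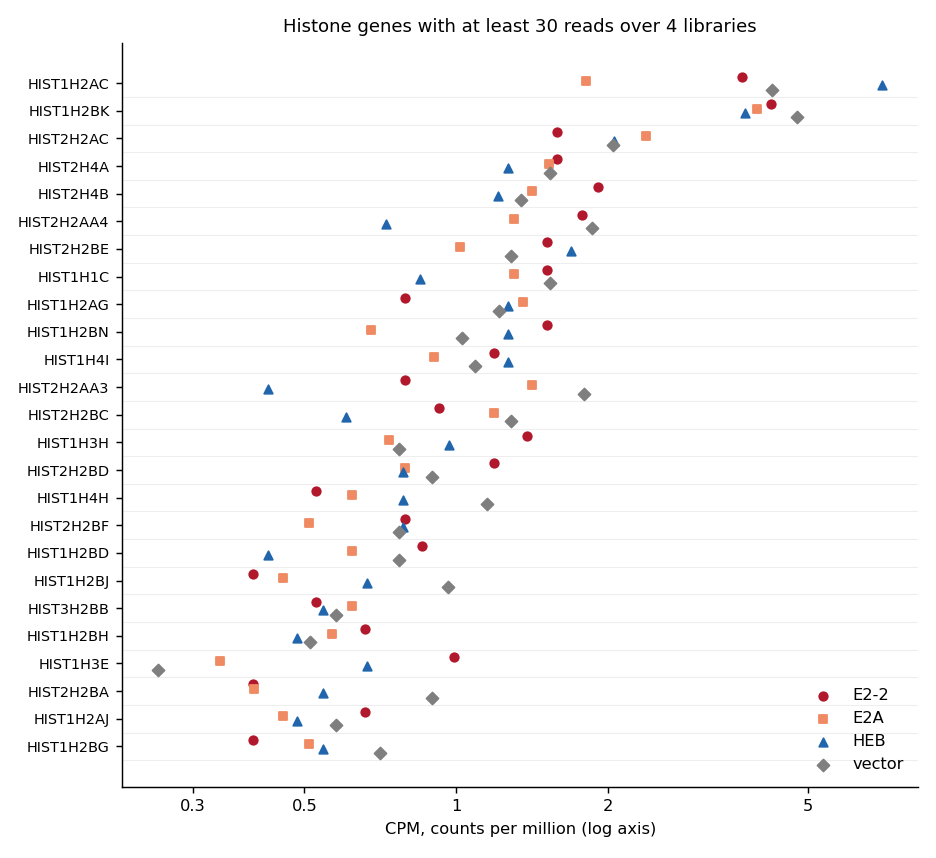
CPM in each library (log axis) for the 25 members with at least 30 reads over the 4 libraries, ordered by total reads, 1 point per library. Most points lie between 0.3 and 2 CPM, HIST1H2AC shows the widest spread among members with at least 100 reads, and HEB is the lowest point for HIST2H2AA3 and HIST2H2AA4.

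Levels were set beside each other per gene length with the authors' FPKM. HIST1H2BK was highest at 11.3 FPKM in E2-2, 10.4 in E2A, 9.69 in HEB and 12.3 in vector. HIST2H2AC followed at 4.15, 6.09, 5.19 and 5.22 FPKM in the same libraries. HIST1H2AC, with as many reads over the libraries as HIST1H2BK, was at 0.904, 0.433, 1.65 and 1.00 FPKM, computed over the longer model. The first place of HIST1H2BK depends on a model of 381 nucleotides, while RefSeq gives that gene a span of 8566. For 49 of 65 members with reads the length behind the FPKM equalled the span within 1 nucleotide, for 15 it was shorter and for 1, HIST4H4, it was longer than the span. Of the 11 head-to-head pairs, 3 had the H2A gene higher in FPKM in every library than the H2B gene in any, 3 had it lower, and in 5 the ranges met. HIST2H2AC at 4.15 to 6.09 FPKM stood above HIST2H2BE at 0.386 to 0.632, and HIST1H2AJ at 1.17 to 1.74 above HIST1H2BM at 0 to 0.297. In the other direction, HIST3H2A had no read beside HIST3H2BB at 0.227 to 0.263, and HIST1H2AK none beside HIST1H2BN at 0.0983 to 0.225. The span of HIST1H2BN overlaps HIST1H2AK, and that of HIST2H2BE overlaps 9 other genes. How reads were divided there is unknown, so these pairs may not differ in level as their FPKM do.

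Members known for polyadenylated transcripts (HIST1H1C, HIST1H2AC, HIST1H2BC, HIST1H2BD, HIST1H2BK and HIST2H2BE) took 32.4% of histone reads in E2-2, 27.0% in E2A, 37.5% in HEB and 30.7% in vector. Their sum in E2A was 0.706 (0.570 to 0.874) of vector, against 0.926 (0.753 to 1.14) for E2-2 and 1.07 (0.881 to 1.30) for HEB. HIST1H2AC carried this order: the other 5 genes stood at 0.952 (0.739 to 1.22) of vector in E2-2, 0.843 (0.657 to 1.08) in E2A and 0.781 (0.602 to 1.01) in HEB, and each interval held 1. The other 69 members stood at 0.858 (0.746 to 0.985) of vector in E2-2, 0.848 (0.741 to 0.969) in E2A and 0.792 (0.689 to 0.910) in HEB. HIST2H2AA3 and HIST2H2AA4, which are among the 69, gave 19 of their 379 HEB reads and 57 of their 451 vector reads. Between E protein libraries the ratio of these 69 was 1.01 (0.879 to 1.16) for E2-2 to E2A, 1.08 (0.936 to 1.25) for E2-2 to HEB and 1.07 (0.930 to 1.23) for E2A to HEB.

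Genes that act on histone transcription and mRNA processing were then read from a list of 35 names, of which 32 were in the table and measured. SLBP, the stem-loop binding protein gene (chromosome 4, 1692800 to 1712555), had 6063 reads in E2-2, 6762 in E2A, 2985 in HEB and 2201 in vector, or 399.8, 383, 180 and 141 CPM. SLBP rose by 2.83-fold (2.70 to 2.98) in E2-2 and by 2.71-fold (2.58 to 2.85) in E2A relative to vector, and its ratio was 1.28 (1.21 to 1.35) in HEB. Compared directly, E2-2 was 2.22-fold (2.12 to 2.32) and E2A 2.12-fold (2.03 to 2.22) higher than HEB. SLBP was not called in HEB against vector. The summed histone CPM was 0.878 of vector in E2-2, 0.804 in E2A and 0.877 in HEB. Without HIST1H2AC it was 0.879 (0.779 to 0.992), 0.847 (0.753 to 0.952) and 0.790 (0.699 to 0.892) in the same order. A link between SLBP and these sums was not tested.

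NPAT, a coactivator of histone gene transcription at the histone locus body, was at 53.0 CPM in E2-2, 47.7 in E2A, 48.1 in HEB and 45.3 in vector, with ratios to vector of 1.17 (1.06 to 1.30), 1.05 (0.951 to 1.17) and 1.06 (0.959 to 1.18). E2F2, an E2F factor of the G1 to S transition, was 2.45-fold (2.27 to 2.65) higher in E2-2 than in vector, with 2212 reads in E2-2, 1720 in E2A, 1236 in HEB and 928 in vector. POU2F2 (OCT2), a lymphoid factor that binds the octamer, had 43 reads in E2-2, 67 in E2A, 40 in HEB and 96 in vector. Relative to vector it was called lower in E2-2, by 2.17-fold (1.5 to 3.19), and in HEB, by 2.55-fold (1.74 to 3.78). On this list 2 were thus called higher and 1 lower for E2-2, 1 higher for E2A and 1 lower for HEB, beside 12.0%, 6.47% and 3.78% called in either direction over all genes, and these counts lay under those shares. The median log2 folds of the list were 0.00, 0.08 and 0.09.

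**Figure D4:**
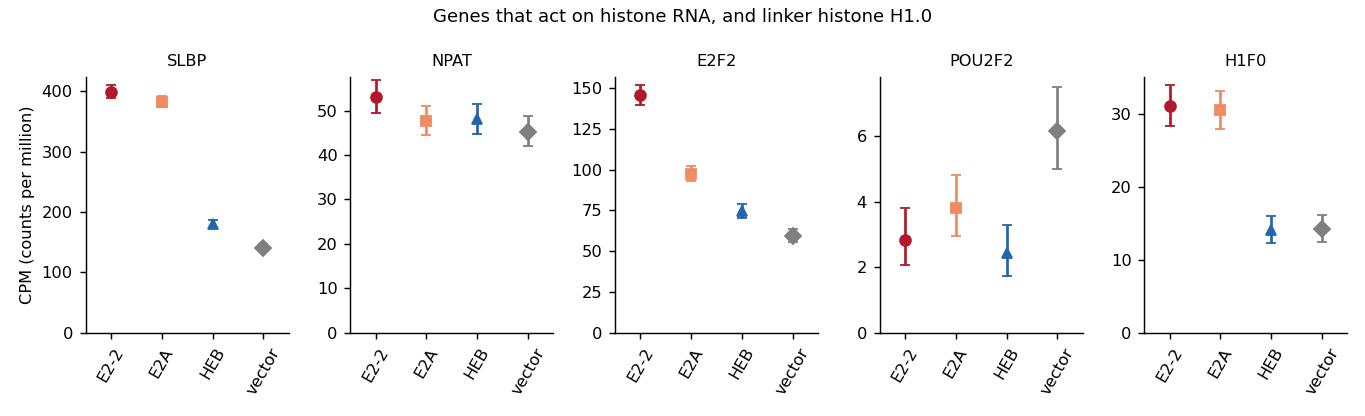
CPM in each library for SLBP, NPAT, E2F2 and POU2F2, which act on histone genes or their RNA, and for H1F0, the replication-independent linker histone; 1 point per library, bars for 95% exact Poisson intervals. SLBP stands at 399.8 and 383 CPM in E2-2 and E2A against 141 in vector, and H1F0 at 31.0 and 30.4 against 14.2.

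Replication-independent histone variants are made from polyadenylated mRNAs throughout the cell cycle, and 10 of the 17 listed were measured. H1F0, a linker histone gene known to accumulate in cells that leave the cycle or differentiate, had 470 reads in E2-2, 538 in E2A, 232 in HEB and 221 in vector. H1F0 rose by 2.19-fold (1.86 to 2.58) in E2-2 and by 2.15-fold (1.83 to 2.52) in E2A relative to vector, and was 1.01-fold (0.837 to 1.22) lower in HEB. No other variant was called. Against vector the counts were thus 1 of 10 for E2-2, 1 of 10 for E2A and 0 of 10 for HEB. Over all genes the shares called in either direction were 12.0%, 6.47% and 3.78%. H2AFY, which encodes macroH2A1, came nearest from below at 1.91-fold (1.86 to 1.97) lower in E2-2, and CENPA, the centromeric H3, from above at 1.92-fold (1.71 to 2.14) higher in E2-2. The H3.3 gene H3F3A was at 175 FPKM in E2-2, 156 in E2A, 136 in HEB and 145 in vector. No replication-dependent H3 gene passed 1.15 FPKM in any library. Selection of polyadenylated RNA recovers mRNAs without a poly(A) tail poorly, and its part in this gap was not tested.

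S phase genes were read from a list of 38. For E2-2, 2 were called higher, SLBP and the proliferation marker gene MKI67 (2.05-fold, 2.01 to 2.10), and 1 for E2A, which was SLBP, with 0 for HEB and 0 lower in each. Over all genes the called shares were 12.0% for E2-2, 6.47% for E2A and 3.78% for HEB, so these counts were not above the background. Their median log2 fold was 0.04 for E2-2, 0.01 for E2A and 0.07 for HEB. Of 22 histone chaperone genes, 21 were measured and 0 were called against vector.

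Each transduced gene was highest in its own library, as a check of the labels: TCF4 had 12484 reads in E2-2 and at most 4 elsewhere, TCF3 23186 in E2A and TCF12 13842 in HEB. Library totals ran from 14816708 to 17673090 counted reads. Of 8 myeloblast markers, all were detected, and their summed level was 13871 CPM in E2-2, 16274 in E2A, 22611 in HEB and 18874 in vector. Of these 8, 1 stood above vector in E2-2, 2 in E2A and 5 in HEB. CD33 was called higher than vector in each E protein library, and no other of them was called against vector. Summed erythroid markers were at most 0.330 CPM, with HBB and HBA1 at 0 reads in every library. Markers of fibroblast or packaging cells summed to 6.77 to 10.7 CPM and T cell markers to 1.06 to 2.95 CPM. Of the 4 T cell markers, 1 was measured against vector, CD3D, which was called lower in each E protein library. Monocytic markers summed to 49.3 CPM in E2-2, 16.5 in E2A, 13.4 in HEB and 11.2 in vector, and B cell markers to 9.76, 5.09, 2.72 and 2.76 CPM. Of the 3 monocytic markers, 2 were measured against vector: CSF1R was called higher in each E protein library, and the other was not above vector in any. Of the 3 B cell markers, 1 was measured against vector, and the B cell calls, in E2-2 and E2A, were of CD79A. The part of these marker levels in the histone values was not tested.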

How the data were processed

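The authors deposited 1 table with a whole-number read count per Ensembl gene and RNA library, and FPKM values beside them, per the file headers. Builds hg19 and hg38 stand, without roles, in the submitters' processing notes, as do HTSeq 0.9.1, MACS2 2.1.1.20160309, TopHat2 2.0.9 and Bowtie2 2.2.9. Neither the annotation nor the strand setting is given in those notes or the labels, so overlapping and near-identical genes are uncertain. The HA ChIP-seq libraries were not analysed here.

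Counts were scaled with edgeR 4.0.16 (TMM, R 4.3.3). No p-values are reported, as every group is 1 library. Folds carry a 95% exact conditional binomial (Clopper-Pearson) interval, computed in Python 3.11.15 with scipy 1.17.1, and levels have exact Poisson intervals. Where a library had 0 reads, folds used 3. Calls needed a fold of 2, an interval that excluded 1 and 30 reads. The rule was run on simulated Poisson counts, the noise that its intervals assume, with no spread between cultures. Such counts cannot show how the rule would fare across cultures. DESeq2 1.42.0 size factors, library totals, FPKM, other read minimums and other member sets were alternatives. Named were members with at least 100 reads, every called member, and called list genes with SLBP and NPAT; H2AFY, CENPA and H3F3A were added after their values were seen. The members and lists were chosen with earlier results of these data known. Gene positions are those of the table, where the spans of HIST1H2AC, HIST1H2BK and HIST2H2AC overlap their RefSeq spans on GRCh38.p14, and 69 members matched a current symbol.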

Additional observations from a re-analysis of the deposited data

How the results depend on the processing

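Counts of called members are small and moved with the read minimum. For E2-2 against vector, 1 call became 2 with at least 10 reads, 4 with no filter, and 0 with at least 100 reads, with FPKM plus 1 and with near-identical copies as 1 gene, an alternative chosen after seeing the data. With at least 100 reads, which left 1 or 2 members, the count was also 0 for E2A and HEB against vector and in both direct comparisons of E2-2, and 1 for E2A against HEB. With FPKM plus 1 it was 0 for E2A against vector, 1 for HEB against vector, 0 in each direct comparison of E2-2, and 1 for E2A against HEB. FPKM plus 0.1 gave 0 for E2-2 against E2A. Copies as 1 gene gave 1 for HEB against vector, and a 1.5-fold threshold gave 2 for E2-2 against HEB.

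The summed ratios stayed below 1 against vector under all alternatives run, but 3 intervals came to hold 1: E2-2 with library totals, 0.907 (0.808 to 1.02), E2-2 without HIST1H2AC and the HIST2H2AA pair, 0.898 (0.791 to 1.02), and HEB without members that overlap another gene, 0.977 (0.847 to 1.13). Without the RefSeq pseudogenes they were 0.878, 0.810 and 0.884 for E2-2, E2A and HEB, though members without a current symbol were not checked and stayed in. FPKM plus 0.1 and plus 1 gave 0.726 and 0.730 for HEB against vector, 1.17 and 1.16 for E2-2 against HEB, and 1.19 and 1.19 for E2A against HEB. E2A against HEB was 0.916 with all members, 1.07 without the member with the most reads, HIST1H2AC, and 1.07 without the polyadenylated list. Without members that overlap another gene, chosen after seeing the data, it was 0.804, and E2-2 against HEB was 0.863. Without HIST1H2AC, also chosen after seeing the data, E2A against HEB turned round: it became 1.34 in place of 0.747 for H2A genes, 1.08 in place of 0.660 for the polyadenylated list and 1.05 in place of 0.642 for the first HIST1 block. The cause of the FPKM shifts was not tested. DESeq2 size factors and library totals changed no call of a named member, SLBP, POU2F2 or H1F0, while E2F2 passed 2-fold for E2-2 against HEB with library totals (2.03). No paired analysis was possible because each group is 1 library. Depth limits most members: 50 of 75 had under 30 reads over the 4 libraries.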
